A study of Mus musculus with 15 samples.

Results

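The genes described here build the primary cilium or cause cystic kidney disease when mutated, and they were followed in renal tubule cells grown in 4 three-dimensional microenvironments and on flat plates. They were chosen by symbol, with a rule that uses no measured value but was set with earlier results of these data known. It takes every gene named Ift, Bbs or Nphp with a number, and 25 named cilium, cyst and Glis genes. The rule found 50 of the 27179 genes. All 50 had reads and an adjusted p in all 4 comparisons. Levels are given as base means or as normalized reads in each culture. A base mean is the mean number of normalized reads per library over the 6 libraries of a comparison, 3 of them 2D. Of the 50 genes, 4 differed from 2D in at least 1 microenvironment and 46 in none, while 17.3% of the 14020 genes tested in all 4 comparisons differed in at least 1. The genes that changed were Pkhd1, Tmem231, Invs and Glis3, and each change was a fall.

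The cells were iRECs, induced renal tubular epithelial cells, which are mouse fibroblasts reprogrammed with kidney transcription factors such as Pax8, Hnf4a and Emx2. The 3D cultures were iRECs in Matrigel, an extract of basement membrane, iRECs in fibrin, iRECs in collagen I, and iRECs placed by inkjet bioprinting into fibrin with collagen I (called printed). The deposited table used for the printed cultures names collagen alone, while the labels of those libraries name both fibrin and collagen. Each had 3 libraries and was compared with 3 libraries of iRECs on 2D plates. All 15 cultures were kept in the same renal epithelial growth medium (REGM) to day 7, and those in Matrigel, fibrin, collagen I and 2D were dispensed by hand. Each condition had a library from passage 35, a library from passage 48 and a library from passage 53 of 1 line, and at each passage the conditions shared a pool of cells. The p-values therefore measure the spread between cultures of 1 line, with 1 culture per passage and condition. Whether the authors' fit had a term for passage is not given, so whether that spread includes passage is unknown. The printed cultures differ from the single gels both in matrix and in dispensing, and these cannot be told apart. Only 1 value per gene and comparison was at hand, so no value of a single library can be given, and whether single libraries of 2 groups overlap was not tested.

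The primary cilium is a single antenna of microtubules on the surface of tubule cells. Intraflagellar transport (IFT) complexes carry cargo along it: IFT-B trains move outward with kinesin motors, and IFT-A trains return with cytoplasmic dynein. The BBSome, a coat of Bardet-Biedl syndrome (BBS) proteins, moves membrane receptors, and the transition zone at the cilium's base acts as a gate that holds Meckel, Joubert and nephronophthisis proteins. Polycystin-1 and polycystin-2 form a receptor and channel complex in the ciliary membrane, fibrocystin is a large membrane protein of cilium and basal body, and loss of any of them gives polycystic kidney disease.

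The 2D level of each gene was taken as the median over the 4 comparisons and divided by its longest transcript, which allows genes to be ranked. Arl3, a GTPase that releases lipid-modified cargo in the cilium, had the highest level, 3543 normalized reads per kb. Next came the transcription factor Glis2 with 1770, the transition zone protein B9d1 with 1698, the IFT-A subunit Ift43 with 1440, Tmem231 with 1354 and Pkd2 with 1346 normalized reads per kb. Pkhd1 stood at rank 11 with 756 and Pkd1 had 347 normalized reads per kb. Among the lowest levels per kb were those of Nphp4 with 35.9, Cep290 with 45.8 and the dynein heavy chain Dync2h1 with 63.5.

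**Figure D1:**
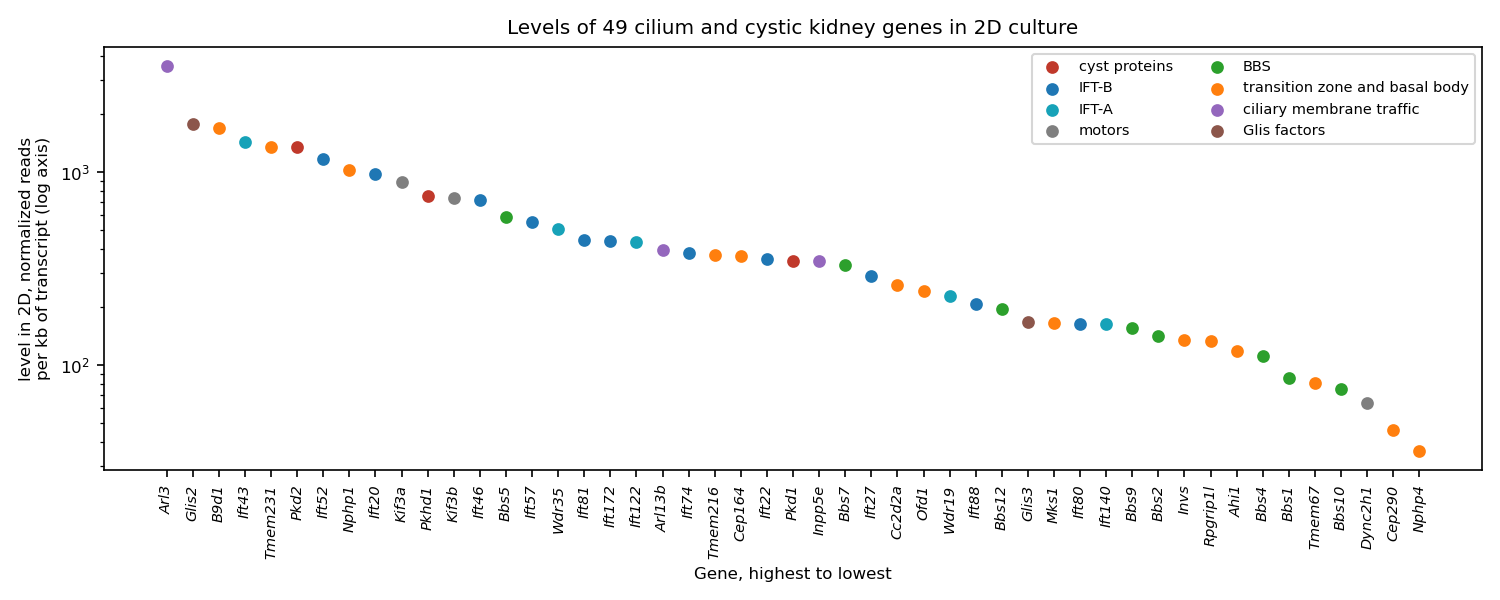
Level in 2D culture of 49 of the 50 genes, in normalized reads per kb of the longest transcript on a log axis, ordered from highest to lowest and coloured by group. Arl3 is highest at 3543 and Nphp4 lowest of those plotted at 35.9 normalized reads per kb, with Pkhd1 at 756.

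Promoter sequence was examined because many cilium genes carry an X-box, the site of regulatory factor X (RFX) proteins. The motif searched was GTTNCC and GGNAAC with 2 free bases between them, which reads the same on both strands, with at most 1 mismatch among its 10 defined letters. RefSeq windows on GRCm38.p6 from 250 bases before to 50 bases after the transcript start were matched for 43 of the 50 genes. The motif was in 11 of these 43 genes (25.6%), against 2.89% of the 27025 genes with a window. An unbroken match was in 3 of 43 genes (6.98%), against 0.529% of genes. The 3 unbroken matches and the site of Tmem231, which has 1 mismatch, are shown with the motif in capitals. They lie at chr10:20952560-20952589 on the plus strand for Ahi1, at chr3:36613489-36613518 on the minus strand for Bbs7, at chr11:87853183-87853212 on the plus strand for Mks1 and at chr8:111933781-111933810 on the minus strand for Tmem231.
Ahi1: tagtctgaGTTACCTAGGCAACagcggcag
Bbs7: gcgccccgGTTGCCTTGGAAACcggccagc
Mks1: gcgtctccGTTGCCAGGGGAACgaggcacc
Tmem231: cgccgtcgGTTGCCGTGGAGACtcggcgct
The other 7 genes with a match had 1 mismatch at each site: B9d1, Bbs1, Bbs4, Ift57, Nphp4 and Tmem216 held 1 site each, and Ift22 held 2.

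In Matrigel, 2 of the 50 genes (4%) had an adjusted p under 0.05, against 6.36% of all genes tested. Both fell, as did 2.32% of all genes tested. In fibrin 1 gene (2%) changed, against 8.3% of all genes. It fell, as did 3.11% of all genes. In collagen I 3 genes (6%) changed, against 11.2% of all genes. All 3 fell, as did 4.65% of all genes. In the printed cultures 0 of 50 genes changed, against 3.18% of all genes, by the authors' DESeq2 test, and 0.675% of all genes fell. None of the 50 genes rose in any of the 4 microenvironments, while 4.03%, 5.19%, 6.51% and 2.51% of all genes rose in Matrigel, fibrin, collagen I and printed cultures. At an unadjusted p under 0.05 the counts were 7 of 50 in Matrigel, 5 in fibrin, 9 in collagen I and 5 in printed cultures, against 16.2%, 19.3%, 22.9% and 11.4% of all genes tested. In bulk cultures, fewer cells of a type and less RNA per cell cannot be told apart.

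**Figure D2:**
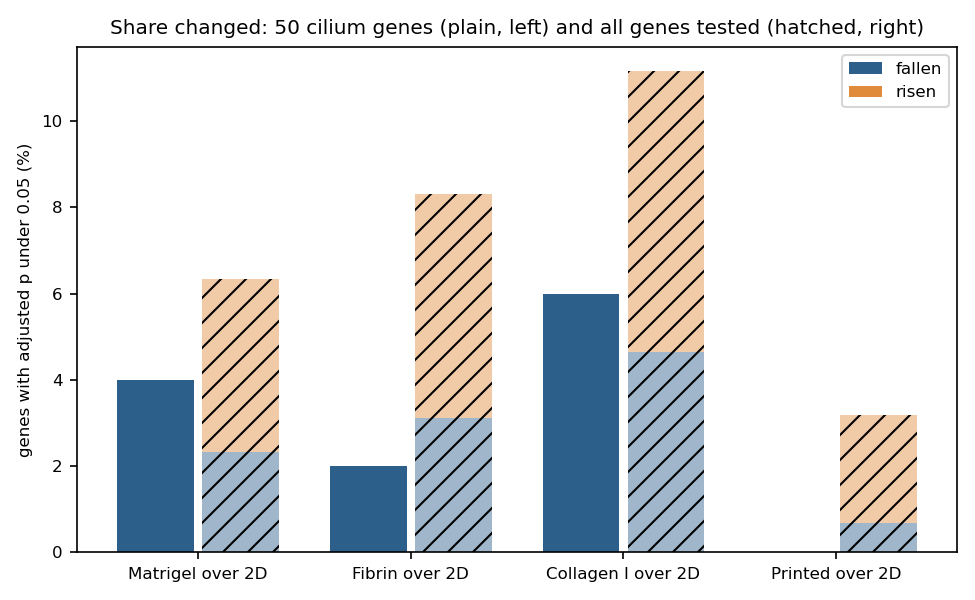
Percentage of genes with the authors' adjusted p under 0.05 in each microenvironment over 2D, for the 50 cilium and cyst genes (plain bars) and all genes tested (hatched bars), split into fallen and risen. The plain bars reach 4%, 2%, 6% and 0% and hold fallen genes only, while the hatched bars reach 6.36%, 8.3%, 11.2% and 3.18%.

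The fold changes of the 50 genes were small in the authors' deposited tables. Their median log2 fold change over 2D was -0.09 in Matrigel, -0.04 in fibrin, -0.10 in collagen I and -0.19 in printed cultures. Over all genes whose base mean reached 100 it was 0.01, 0.02, 0.04 and 0.01 in the same order. Of the 50 genes, 34 had a negative value in Matrigel, 28 in fibrin, 29 in collagen I and 38 in printed cultures, against 48.0%, 47.4%, 45.8% and 47.9% of all such genes. The median standard error of a member was 0.20, 0.23, 0.24 and 0.23 on the log2 scale, close to the size of its typical change. Intervals were taken around the deposited fold changes, which are shrunken towards 0, and do not bound unshrunken changes. The 95% interval lay within a 2-fold change in both directions for 49 genes in Matrigel, 46 in fibrin, 43 in collagen I and 46 in printed cultures. For all genes whose base mean reached 100 these shares were 90.8%, 82.6%, 78.5% and 89.6%. Within a 1.5-fold change the counts dropped to 24, 11, 7 and 17 of the 50 genes. Of the 11346 genes whose base mean reached 100 in Matrigel, 5997, 3640, 2895 and 4685 lay within it. Smaller changes of most of the 50 genes thus could not be told from 0 at this precision.

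**Figure D3:**
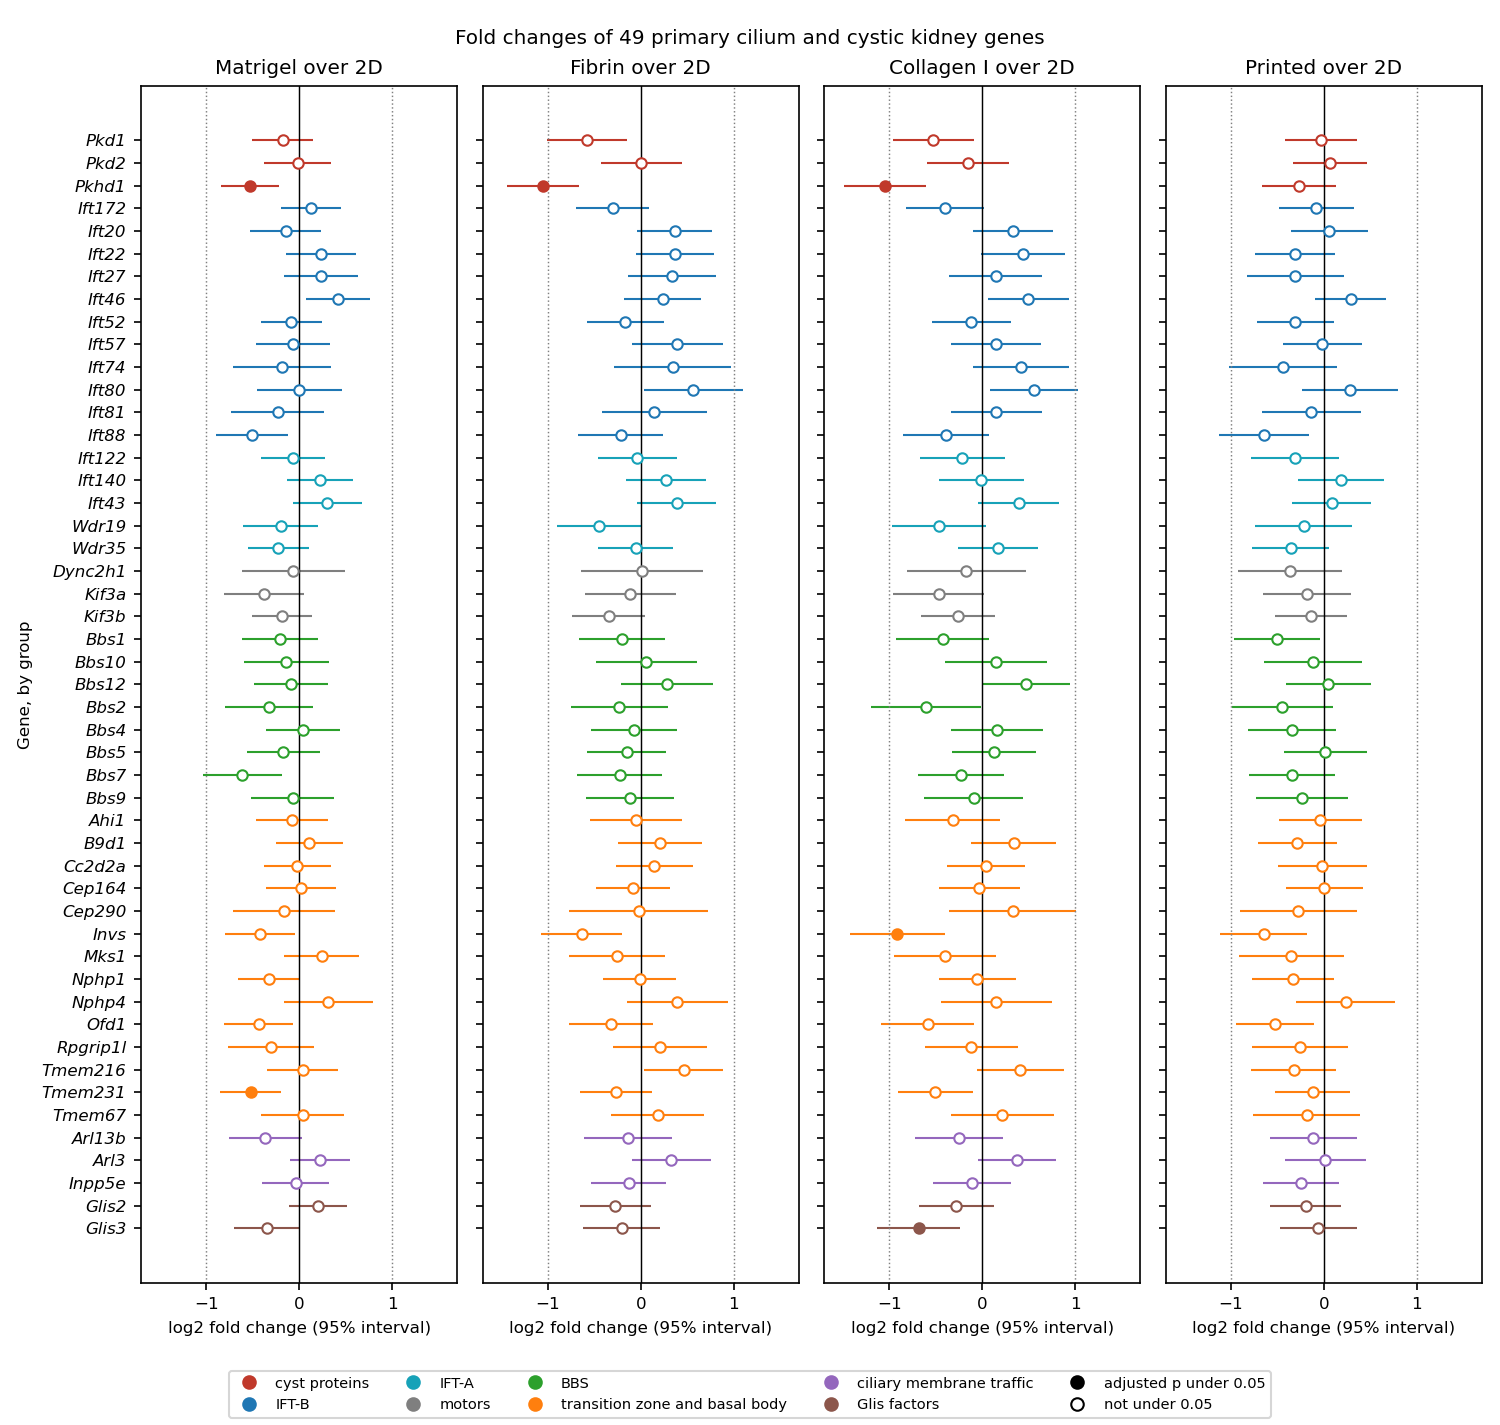
Log2 fold change over 2D with its 95% interval for 49 of the 50 genes in the authors' deposited tables, in panels for Matrigel, fibrin, collagen I and printed cultures; filled points have an adjusted p under 0.05, and dotted lines mark a 2-fold change. The filled points are Pkhd1 in the first 3 panels, Tmem231 in Matrigel, and Invs and Glis3 in collagen I, all left of 0.

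Among the cyst proteins, Pkhd1, which encodes fibrocystin (chr1:20057779-20618082, GRCm38), fell in Matrigel, fibrin and collagen I. It had the highest base mean of the 50 genes. From the authors' deposited tables its level was 6868 normalized reads in Matrigel, against 9895 in 2D. In fibrin it was 4654 normalized reads, against 9650 in 2D, and in collagen I 4574, against 9440 in 2D. In printed cultures it was 8383 normalized reads, against 10077 in 2D. The levels in fibrin and collagen I were thus 0.482 and 0.485 times that in 2D, and those in Matrigel and printed cultures 0.694 and 0.832 times. In the authors' deposited table for fibrin the log2 fold change was -1.05 ± 0.20 (standard error) with adjusted p = 1.01e-05. The authors' deposited table for collagen I gave -1.05 ± 0.23 with adjusted p = 0.000193, and that for Matrigel -0.53 ± 0.16 with adjusted p = 0.019. For printed cultures the authors' deposited table gave -0.27 ± 0.20, adjusted p = 0.73, with an interval of -0.66 to 0.13. With the width of the Wald distribution estimated from its middle part over all genes, the fall in fibrin kept an adjusted p of 0.0073, while the values for Matrigel and collagen I were 0.19 and 0.15. Exons of Pkhd1 share 208 bases with the antisense gene 4930486I03Rik.

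The polycystin genes had no call in any microenvironment. Pkd1, which encodes polycystin-1, had log2 fold changes of -0.58 ± 0.22 in fibrin and -0.53 ± 0.22 in collagen I in the authors' deposited tables, with adjusted p = 0.080 and 0.11. Its values in Matrigel and printed cultures in the authors' deposited tables were -0.18 ± 0.17 and -0.03 ± 0.20, with adjusted p = 0.70 and 0.99. With the trend on GC content and transcript length removed, the value of Pkd1 was -0.30 in fibrin and -0.09 in collagen I. Exons of Pkd1 share 693 bases with Tsc2 on the opposite strand, whose log2 fold changes in the authors' deposited tables were 0.11 in Matrigel, -0.05 in fibrin, 0.02 in collagen I and -0.01 in printed cultures. Pkd2, the channel subunit polycystin-2, stayed near 0 in the authors' deposited tables, with -0.02 ± 0.19 in Matrigel, 0.01 ± 0.22 in fibrin, -0.15 ± 0.22 in collagen I and 0.07 ± 0.20 in printed cultures. Its adjusted p-values ran from 0.76 to 0.996.

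**Figure D4:**
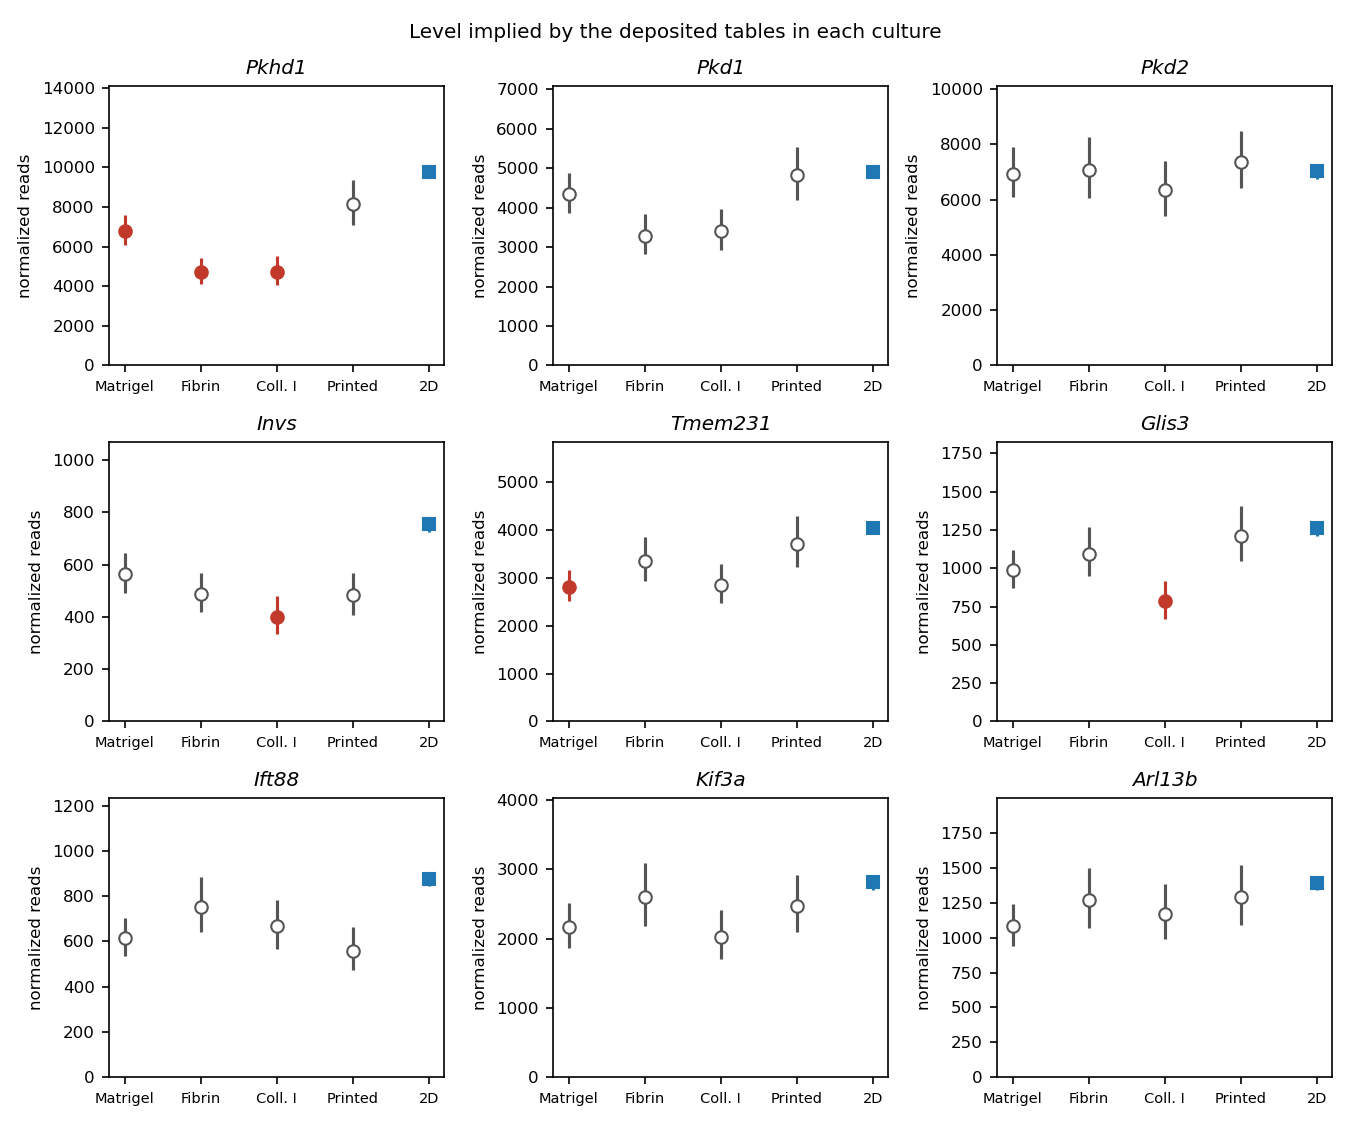
Level of 9 genes in each culture in normalized reads, with Matrigel, fibrin, collagen I and printed cultures left of 2D. Circles are the median 2D level times the deposited fold change with 1 standard error, red where the adjusted p is under 0.05, and squares are the median 2D level with its range over the 4 tables. Pkhd1 is lowest in fibrin and collagen I, Pkd2 stays near its 2D level, and Invs is lowest in collagen I.

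Of the 11 IFT-B genes, 0 changed in any microenvironment, with unadjusted p under 0.05 for 2, 1, 2 and 1 of them in Matrigel, fibrin, collagen I and printed cultures. Their median log2 fold change was -0.07, 0.34, 0.15 and -0.13 in the same order. Ift88, the gene mutated in a classical mouse model of polycystic kidney, had negative values in the authors' deposited tables: -0.51 ± 0.20 in Matrigel, -0.22 ± 0.23 in fibrin, -0.39 ± 0.24 in collagen I and -0.65 ± 0.25 in printed cultures. The adjusted p-values of Ift88 were 0.11, 0.72, 0.32 and 0.16. The highest Wald statistic of the 50 genes in Matrigel was that of Ift46, a core IFT-B subunit, with 0.42 ± 0.18 and adjusted p = 0.16 in the authors' deposited table. In fibrin and collagen I Ift80, another IFT-B subunit, had the highest fold changes, 0.57 ± 0.27 and 0.56 ± 0.24, with adjusted p = 0.22 and 0.12 in the authors' deposited tables.

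The 5 IFT-A genes had 0 changes and 0 with an unadjusted p under 0.05 in each microenvironment, and their log2 fold changes lay between -0.46 and 0.39. The 3 motor genes likewise had 0 changes and 0 with an unadjusted p under 0.05. Kif3a, a subunit of the outward kinesin whose loss in mouse tubules gives cysts, had -0.38 ± 0.22 in Matrigel and -0.47 ± 0.25 in collagen I in the authors' deposited tables, with adjusted p = 0.41 and 0.25. In fibrin and printed cultures Kif3a had -0.11 ± 0.25 and -0.18 ± 0.24 in the authors' deposited tables. The kinesin partner Kif3b and the dynein heavy chain Dync2h1 lay between -0.37 and 0.02.

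All 8 BBS genes missed the threshold, with 1, 0, 1 and 1 at an unadjusted p under 0.05 in Matrigel, fibrin, collagen I and printed cultures. Their medians were -0.15, -0.13, 0.02 and -0.29 in that order. The BBSome subunit Bbs7 had the lowest log2 fold change of the 50 genes in Matrigel, -0.61 ± 0.22 with adjusted p = 0.071 in the authors' deposited table. Bbs10, a chaperonin-like factor for BBSome assembly that was among the 3 genes of lowest base mean, stayed between -0.14 and 0.15.

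The 15 genes grouped as transition zone and basal body, with Invs counted among them, held 2 falls: Tmem231 in Matrigel and Invs in collagen I. Medians of the group were -0.08, -0.01, -0.05 and -0.25 in Matrigel, fibrin, collagen I and printed cultures. Tmem231 (chr8:111912007-111933813, GRCm38), a membrane protein of the transition zone mutated in Joubert and Meckel syndromes, had 2837 normalized reads in Matrigel, against 4071 in 2D. Its log2 fold change in the authors' deposited table was -0.52 ± 0.17 with adjusted p = 0.031. In collagen I the authors' deposited table gave -0.50 ± 0.21 with adjusted p = 0.096, in fibrin -0.27 ± 0.20 with 0.53 and in printed cultures -0.12 ± 0.21 with 0.94. Invs (chr4:48279707-48431956, GRCm38) encodes inversin, which is mutated in infantile nephronophthisis. It had 385 normalized reads in collagen I, against 725 in 2D, and a log2 fold change of -0.91 ± 0.26 with adjusted p = 0.0072 in the authors' deposited table. The values of Invs elsewhere in the authors' deposited tables were -0.42 ± 0.19 in Matrigel, -0.63 ± 0.22 in fibrin and -0.65 ± 0.24 in printed cultures, with adjusted p = 0.21, 0.053 and 0.14. Both calls were lost with the estimated width of the Wald distribution, with adjusted p = 0.25 for Tmem231 and 0.40 for Invs. With the trend on GC content and length removed, both kept an adjusted p under 0.05. Tmem231 then had -0.61 in Matrigel with adjusted p = 0.0077, and Invs had -0.78 in collagen I with adjusted p = 0.035. Exons of Invs share 226 bases with Tex10 on the opposite strand.

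Nphp4, a nephronophthisis protein of the transition zone, was among the 3 genes of lowest base mean. It had 0.31 in Matrigel, 0.39 in fibrin, 0.15 in collagen I and 0.23 in printed cultures in the authors' deposited tables, none with an adjusted p under 0.05. Tmem216, a partner of Tmem231 at the transition zone, had 0.04 in Matrigel, 0.46 in fibrin, 0.41 in collagen I and -0.33 in printed cultures in the authors' deposited tables, also without a call.

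The 3 ciliary membrane traffic genes Arl13b, Arl3 and Inpp5e had 0 changes and 0 with an unadjusted p under 0.05. Arl13b, a GTPase of the ciliary membrane mutated in Joubert syndrome, had -0.37 ± 0.20 in Matrigel, -0.14 ± 0.24 in fibrin, -0.25 ± 0.24 in collagen I and -0.11 ± 0.24 in printed cultures in the authors' deposited tables.

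Of the Glis factors, zinc finger transcription factors found at the cilium, Glis3 fell in collagen I. Loss of Glis3 gives polycystic kidneys in mice. Glis3 (chr19:28258851-28680265, GRCm38) had 753 normalized reads in collagen I, against 1211 in 2D, with a log2 fold change of -0.69 ± 0.23 and adjusted p = 0.029 in the authors' deposited table. In Matrigel, fibrin and printed cultures the authors' deposited tables gave Glis3 -0.35 ± 0.18, -0.20 ± 0.21 and -0.06 ± 0.21. With the trend on GC content and length removed, its value in collagen I was -0.46 with adjusted p = 0.25, and with the estimated width the adjusted p was 0.59. Glis2, a nephronophthisis gene with the third highest base mean, had 0.20 ± 0.16 in Matrigel, -0.27 ± 0.20 in fibrin, -0.28 ± 0.21 in collagen I and -0.19 ± 0.19 in printed cultures in the authors' deposited tables.

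The 4 microenvironments were also set against each other, in 6 pairs that share the 2D libraries. Of the 50 genes, 0 differed in each pair at an adjusted p under 0.05, by the normal test on the difference of the deposited values. That test counts the shared 2D libraries as independent, which widens its standard errors. With 50% of the variance removed as the 2D share, 3 genes differed between fibrin and printed cultures (Ift22, Pkhd1 and Tmem216) and 2 between collagen I and printed cultures (Ift22 and Pkhd1). That setting called 4.01% and 3.25% of all genes in these pairs. With the 2D libraries counted as independent, the shares of all genes that differed were 0.886% for Matrigel against fibrin, 0.329% for Matrigel against collagen I, 0.435% for Matrigel against printed, 0.477% for fibrin against collagen I, 1.05% for fibrin against printed and 0.662% for collagen I against printed cultures. At an unadjusted p under 0.05 the counts of the 50 genes were 1, 1, 1, 0, 3 and 5 in the same order. Pkhd1 was lower in fibrin than in printed cultures by a log2 difference of -0.79 ± 0.28, adjusted p = 0.25. For collagen I minus printed cultures the difference of Pkhd1 was -0.78 ± 0.30 with adjusted p = 0.50, and for Matrigel minus fibrin it was 0.53 ± 0.25 with adjusted p = 0.86. The difference of Pkhd1 between fibrin and collagen I was -0.01 ± 0.30. Tmem216 had the highest difference of fibrin minus printed cultures, 0.79 ± 0.32 with adjusted p = 0.47. The standard error of a difference had a median of 0.30 to 0.33, and a call of 1 gel alone does not show that the gels differed.

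Fold changes varied with transcript length across all genes. The rank correlation between length and log2 fold change over genes whose base mean reached 100 was -0.17 in Matrigel, -0.22 in fibrin, -0.31 in collagen I and 0.08 in printed cultures, as a description across 11012, 11035, 10960 and 11065 genes that share libraries. Over the 50 genes it was -0.19, -0.34, -0.42 and 0.06. Genes of 8 kb or more had median log2 fold changes of -0.10, -0.13, -0.20 and 0.05, and 5.39%, 6.18%, 11.4% and 1.07% of them fell. Pkhd1, with a transcript of 12.935 kb, lay below these medians in each case. With the trend on GC content and length removed, Pkhd1 had -0.47 in Matrigel, -0.90 in fibrin, -0.80 in collagen I and -0.35 in printed cultures, with adjusted p = 0.049, 0.00033, 0.00995 and 0.55. For GC content the rank correlations over the 50 genes were 0.39, -0.12, -0.22 and 0.15.

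**Figure D5:**
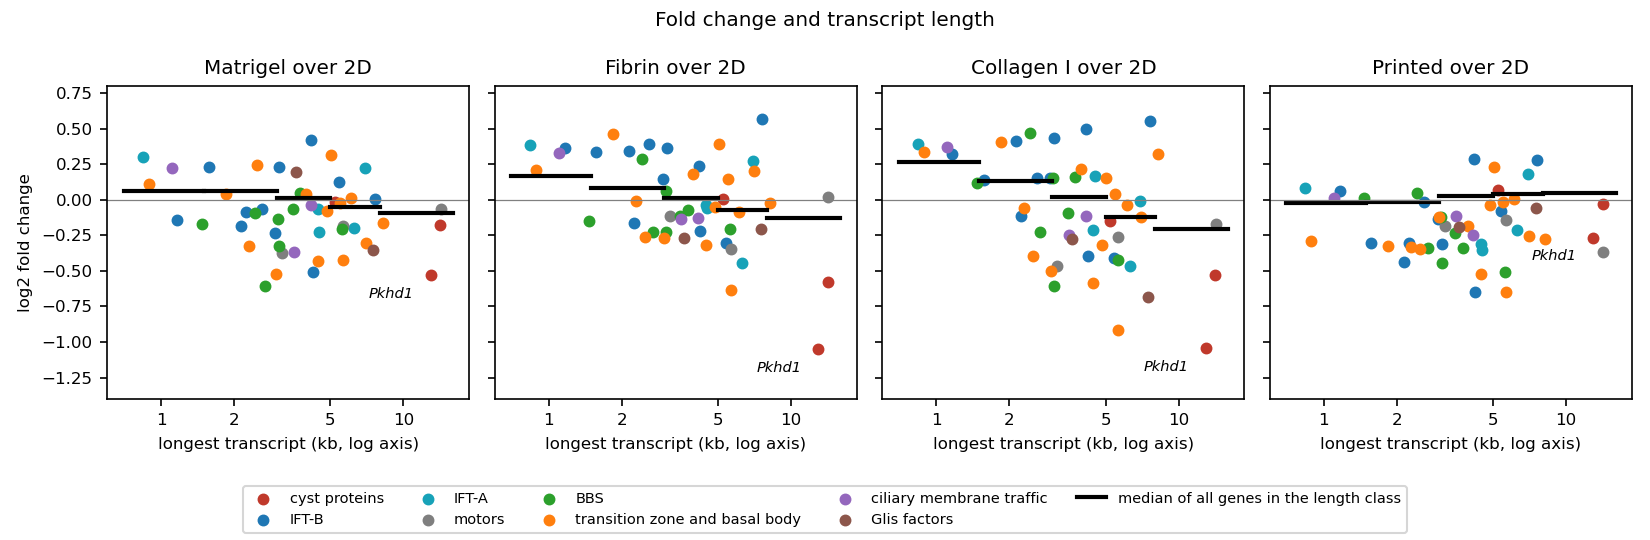
Log2 fold change over 2D of 49 of the 50 genes in the authors' deposited tables against the length of the longest transcript in kb on a log axis, coloured by group; black lines are the median of all genes whose base mean reached 100 in each length class. The medians for genes of 8 kb or more are -0.10, -0.13, -0.20 and 0.05 in Matrigel, fibrin, collagen I and printed cultures, and Pkhd1 lies below them.

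Genes with an X-box match were set beside the other genes with a promoter window. The 11 genes with a match had median log2 fold changes of 0.04 in Matrigel, -0.05 in fibrin, 0.15 in collagen I and -0.31 in printed cultures. The other 32 genes had -0.15, -0.10, -0.12 and -0.16, and no test was made of the difference. The factor Rfx3, which binds X-boxes, had 0.04, 0.16, -0.09 and 0.15 in the authors' deposited tables for Matrigel, fibrin, collagen I and printed cultures, without a call.

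Other genes of the same machinery were counted beside the 50. Of 20 further IFT, motor and BBS genes tested, 0 changed in Matrigel, fibrin and printed cultures, where 0, 4 and 4 had an unadjusted p under 0.05, and 3 rose in collagen I, where 6.51% of all genes rose. No test was made of a difference from the 50 genes. These were the small BBSome subunit Bbip1, with 0.97 ± 0.22 and adjusted p = 0.00036, the BBSome-recruiting GTPase Arl6 with 0.68 ± 0.22 and 0.027, and the BBSome subunit Ttc8 with 0.73 ± 0.24 and 0.029, in the authors' deposited table. In fibrin Bbip1, Arl6 and Ttc8 had 0.63 ± 0.24, 0.61 ± 0.24 and 0.66 ± 0.24 in the authors' deposited table, without a call. Their adjusted p-values there were 0.082, 0.086 and 0.060 by the authors' DESeq2 test. In Matrigel and printed cultures the 3 genes lay between -0.02 and 0.33. Bbip1 had 1459 normalized reads in collagen I, against a median of 749.8 in 2D. Of 25 further transition zone, inversin and basal body genes, only Tmem237 passed the threshold. It rose in Matrigel, fibrin and collagen I, where 4.03%, 5.19% and 6.51% of all genes rose. Tmem237, a transition zone membrane protein mutated in Joubert syndrome, had 0.51 ± 0.17, 0.59 ± 0.20 and 0.67 ± 0.22 in the authors' deposited tables for these gels, with adjusted p = 0.0498, 0.043 and 0.024. In printed cultures the authors' deposited table gave Tmem237 0.14 ± 0.21.

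Among 15 further cystic kidney disease genes tested, 1 fell in Matrigel, 0 changed in fibrin, 2 fell in collagen I and 1 rose in printed cultures. Over all genes tested, 2.32% fell in Matrigel, 8.3% changed in fibrin, 4.65% fell in collagen I and 2.51% rose in printed cultures. Bicc1, an RNA-binding protein whose loss gives cystic kidneys in mice, fell in Matrigel and collagen I, with -0.73 ± 0.18 and -0.64 ± 0.22 and adjusted p = 0.0028 and 0.040 in the authors' deposited tables. In fibrin Bicc1 had 0.00 ± 0.24 in the authors' deposited table. Tsc1, a growth control gene of tuberous sclerosis, fell in collagen I, with -0.72 ± 0.22 and adjusted p = 0.015 in the authors' deposited table. Muc1, a mucin gene mutated in tubulointerstitial kidney disease, rose in printed cultures, with 0.83 ± 0.24 and adjusted p = 0.019 in the authors' deposited table.

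Among cAMP and chloride genes linked to cyst growth, 6 of 12 had an adjusted p in fibrin and 5 of 12 in collagen I. Of these, 2 fell in fibrin and 1 fell in collagen I, against 3.11% and 4.65% of all genes tested. Pde4c, a cAMP phosphodiesterase found at the cilium of mouse tubule cells, fell in fibrin and collagen I, with -1.16 ± 0.25 and -1.07 ± 0.25 and adjusted p = 0.00015 and 0.00083 in the authors' deposited tables. Its level was 3425 normalized reads in fibrin and 3558 in collagen I, against a median of 7736 in 2D. The ciliary adenylate cyclase Adcy3 fell in fibrin, with -0.89 ± 0.30 and adjusted p = 0.038 in the authors' deposited table. In Matrigel and printed cultures 0 of 6 genes tested changed, and 0 had an unadjusted p under 0.05.

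Genes of cilium disassembly, centrioles and DNA replication were counted too, and can be read against the shares of all genes. Of all genes tested, 4.03%, 5.19%, 6.51% and 2.51% rose and 2.32%, 3.11%, 4.65% and 0.675% fell in Matrigel, fibrin, collagen I and printed cultures. Of 11 disassembly and capping genes, 1, 2, 3 and 2 rose and 1, 1, 1 and 0 fell in Matrigel, fibrin, collagen I and printed cultures. Plk1, a mitotic kinase that also promotes cilium disassembly, rose in all 4, with 0.83 ± 0.22, 1.25 ± 0.25, 1.12 ± 0.27 and 0.82 ± 0.20 in the authors' deposited tables. Kif19a, a kinesin that shortens motile cilia in mice, fell in Matrigel, fibrin and collagen I, with -1.05 ± 0.27, -1.04 ± 0.30 and -1.12 ± 0.34 in the authors' deposited tables. Aurka, the kinase that starts disassembly, rose in fibrin and collagen I, with 0.82 ± 0.28 and 0.95 ± 0.28 in the authors' deposited tables. The mitotic kinase Nek2 rose in collagen I and printed cultures, with 0.96 ± 0.26 and 0.71 ± 0.21 in the authors' deposited tables. Of 17 centriole and tubulin genes, 2, 5, 4 and 1 rose and 0 fell. Tubb4b, a tubulin of axonemes and of the cytoplasm, rose in all 4. Its log2 fold changes were 1.10 ± 0.19 in Matrigel, 1.47 ± 0.25 in collagen I and 0.90 ± 0.20 in printed cultures in the authors' deposited tables. In fibrin its level was 15048 normalized reads, against a median of 7659 in 2D, with adjusted p = 0.00049. The centriole protein Cetn2 rose in fibrin and collagen I, with 0.73 ± 0.22 and 0.94 ± 0.22 in the authors' deposited tables. All 15 DNA replication genes rose in fibrin and in collagen I, and 11 and 8 of them rose in Matrigel and printed cultures. The part of cell division in the values of the 50 genes was not tested.

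Motile cilium genes were low, with base means of at most 84.6 normalized reads and 0 changes among the 9 to 11 of 18 tested, where 1, 0, 1 and 0 of all 18 had an unadjusted p under 0.05 in Matrigel, fibrin, collagen I and printed cultures. Of 7 cilium and multicilium transcription factors tested, 0 changed, with 2, 2, 3 and 0 of the whole list at an unadjusted p under 0.05. Hedgehog genes, whose signal passes through the cilium, had 0 changes among 13, 12, 12 and 13 tested, with 1, 2, 2 and 2 at an unadjusted p under 0.05. The hedgehog target Gli1 had a base mean of at most 6.74 normalized reads in the authors' deposited tables.

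Markers of the tubule were abundant. Cdh16, the kidney cadherin, had base means of 61399, 47158, 54514 and 64782 normalized reads in the authors' deposited tables for Matrigel, fibrin, collagen I and printed cultures. The tight junction gene Cldn3 was the exception, with at most 15.7 normalized reads in the authors' deposited tables. Of 13 tubule markers, 5 rose in Matrigel, 1 fell in fibrin, 2 fell in collagen I and 0 changed in printed cultures, where 3 had an unadjusted p under 0.05. Over all genes tested, 4.03% rose in Matrigel, 3.11% fell in fibrin, 4.65% fell in collagen I and 3.18% changed in printed cultures. In Matrigel E-cadherin Cdh1 rose by 0.90 ± 0.16 and the adhesion gene Epcam by 0.87 ± 0.16 on the log2 scale in the authors' deposited table. Cldn7 and Cubn rose there by 0.76 ± 0.19 and 0.73 ± 0.19. Pax8, a kidney factor used in reprogramming, fell in fibrin and collagen I, with -0.63 ± 0.19 and -0.66 ± 0.20 in the authors' deposited tables.

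Markers of other cell types were followed too. Their calls can be read against the 6.36%, 8.3%, 11.2% and 3.18% of all genes that changed in Matrigel, fibrin, collagen I and printed cultures. Base means average the 3 libraries of a microenvironment with the 3 of 2D, so their sums are not levels in a single culture. Those of 10 fibroblast markers summed to 5384, 6829, 6227 and 6641 in the comparisons of Matrigel, fibrin, collagen I and printed cultures with 2D. Of these sums Vim, an intermediate filament gene not confined to fibroblasts, gave 4996, 6472, 5852 and 6184 in the authors' deposited tables. Col1a1, a collagen I chain, fell in fibrin and collagen I, with -1.49 ± 0.33 and -2.35 ± 0.33 in the authors' deposited tables. Of the 10 fibroblast markers, 8, 5, 4 and 6 had an adjusted p in Matrigel, fibrin, collagen I and printed cultures. S100a4 rose in fibrin, collagen I and printed cultures, Pdgfra fell in fibrin, and 0 of 8 fibroblast markers tested changed in Matrigel, where 3 had an unadjusted p under 0.05. Thy1 had a base mean of at most 0.333 normalized reads and Dcn of at most 1.98 in the authors' deposited tables. Of 7 podocyte markers, only 2, Synpo and Podxl, had an adjusted p, in all 4 comparisons. Synpo fell and Podxl rose in collagen I, and the slit diaphragm gene Nphs1 was listed at 0 in all 4 tables. The base means of the 7 podocyte markers summed to 798.1, 727.8, 581.9 and 947.7 in the comparisons of Matrigel, fibrin, collagen I and printed cultures with 2D.

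The base means of 7 endothelial markers summed to between 14.1 and 27.0. Only 2, 2, 0 and 2 of them had an adjusted p in Matrigel, fibrin, collagen I and printed cultures. Among these there were 0 changes, and 0 of the 7 had an unadjusted p under 0.05. The base means of 7 immune markers summed to 687.1, 802.8, 805.3 and 1677 in the comparisons of Matrigel, fibrin, collagen I and printed cultures with 2D. Of these 7 markers, 3 had an adjusted p in each comparison. The leukocyte gene Ptprc had a base mean of at most 3.02 normalized reads, and Cd3e was listed at 0 in all 4 tables. The macrophage genes Cd68 and Csf1r rose in printed cultures, to 1420 and 894.8 normalized reads, against medians of 395.5 and 494.9 in 2D. Csf1r fell in Matrigel and collagen I, with -1.31 ± 0.23 and -1.50 ± 0.27 in the authors' deposited tables, and Itgam rose in fibrin. Of 8 markers of ciliated airway or ependymal cells, 6 had an adjusted p in each comparison, and Tubb4b alone changed. Foxj1, the transcription factor of these cells, had base means of 30.0 to 44.4 normalized reads in the authors' deposited tables. The part of these markers in the values of the 50 genes was not tested.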

How the data were processed

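RNA of 15 libraries was compared in 4 tables of results, each of 6 libraries and 27179 genes. Per the submitters' processing notes, DESeq2 1.22.1, featureCounts 1.6.3, STAR 2.6.0b-1, FastQC 0.72 and Trim Galore 0.4.3 were used, on mm10. Not given in the sources used here are the strand setting, the annotation and the model terms. The deposited base mean is a signal: reads per gene, normalized by the authors' size factors and averaged over 6 libraries. The deposited fold change is log2 of a microenvironment over 2D, shrunken towards 0 by the authors' fit, and has a standard error. The deposited Wald score is their ratio. Each deposited p-value comes from that score, and Benjamini-Hochberg adjustment of these p-values gave the authors' adjusted values within 6.31e-15. With 0 columns per sample, library depth is unknown, and libraries can neither be compared nor left out.

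The threshold for a call was an adjusted p under 0.05 in the authors' test. The level in each culture was computed from the base mean and the fold change. To check the sign of the fold changes, 368 genes were used: the median SD of the log2 level in 2D between tables was 0.0396, against 0.395 or more with the signs of 1 table turned. A difference between 2 microenvironments was set against its standard error, from both squared errors summed, by a two-sided normal test adjusted over all genes with both values. This treats the shared 2D libraries as independent. Intervals are 95% intervals of 1.96 standard errors. Transcript length and GC content came from the longest transcript per gene in the GRCm38 annotation. Promoter windows came from RefSeq on GRCm38.p6. Scripts used Python 3.11.15, pandas 2.3.3, numpy 2.4.6, scipy 1.17.1, patsy 1.0.2 and matplotlib 3.10.9.

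The members and lists were chosen with earlier results of these data known. Named with their values were members past the threshold in any table or pair, Pkd1, Pkd2, Pkhd1, Ift88, Kif3a and Arl13b in any case, the members with the highest and lowest Wald statistic per table, and the 3 with the highest and lowest base means. Of the 50 members, 1 is not reported here by name or shown in the plots of single genes. Of each other list, up to 4 genes past the threshold were named, in most cases by the size of the Wald statistic. Some genes not chosen this way were named too, such as Pax8, Rfx3, Gli1 and Cldn3. Alternatives were other thresholds, other gene sets for the adjustment, an empirical null, centring, removal of a trend on GC content and length, and removal of the 2D share of the variance.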

Additional observations from a re-analysis of the deposited data

How the results depend on the processing

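No paired analysis was possible because the tables hold 1 value per gene and comparison, and for the same reason no replicate could be left out. In Matrigel the count of changed genes went to 0 of 50, from the 2 reported, at an adjusted p under 0.01 and with an empirical null, which takes the spread of the Wald statistics from the middle of all genes. In fibrin it was 3 at an adjusted p under 0.10 (Invs, Pkd1 and Pkhd1), and 2 (Invs and Pkhd1) when adjusted over genes whose base mean reached 100 or when centred on the median fold change, against the 1 reported. Those 3 settings called 11.6%, 9.46% and 8.19% of the genes tested under each in fibrin. In collagen I the count of changed genes was 0 with the empirical null, against the 3 reported. The spread of that null was 1.27 in Matrigel, 1.35 in fibrin, 1.57 in collagen I and 1.11 in printed cultures, where a standard normal has 1, and it called 373, 336, 146 and 270 of all genes, against the 928, 1215, 1570 and 481 reported; at an adjusted p under 0.01 they were 539, 724, 887 and 256. With the 2D share of the variance removed, set at 50%, the pairs had 3 differing genes between fibrin and printed cultures (Ift22, Pkhd1 and Tmem216) and 2 between collagen I and printed cultures (Ift22 and Pkhd1), against 0 reported; over all genes that setting called 756 and 614, against 198 and 125 reported, and 706, 542, 429 and 292 in the other pairs, against 167, 62, 82 and 90. With the empirical null 559 genes differed between fibrin and collagen I and 151 between Matrigel and printed cultures. At an adjusted p under 0.01 all genes had 88 between Matrigel and fibrin, 46 between Matrigel and printed, 131 between fibrin and printed and 76 between collagen I and printed cultures, and at 0.10 they had 100 between Matrigel and collagen I. The other alternatives kept these counts within 1.5 times, and no call changed direction. Removal of the trend on GC content and length, added for single genes after seeing the data, moved 5 of 64 values by more than a standard error, and the fold change computed from base means moved 1 of 64. Centring moved 0 of 64. The cause of these shifts was not tested. The number of libraries and the standard errors limit the precision.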
